A study of Mus musculus with 71 samples.

Results

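The 10 genes described here belong to the metabolism of astrocytes: Aldoc, Pygb, Phgdh, Psat1, Gldc, Aldh1l1, Cbs, Acsbg1, Cyp2d22 and Mt3. They were picked by name, as astrocyte-enriched genes of glycolysis, glycogen, serine, glycine, sulfur, lipid and metal metabolism. No measured value was part of the rule, but earlier results of these data were known when the genes were chosen. All 10 were among the 57010 genes of the count table and among the 30141 that reached 10 counts over all mice and were tested. The animals were wild-type male C57BL/6J mice, and hippocampi of 71 mice were studied. Ribosomes carrying phosphorylated ribosomal protein S6 were captured with an antibody and their mRNA was sequenced (pS6-TRAP), so the values describe mRNA held by such ribosomes in all hippocampal cells together. Mice ate normal chow with free access (NC ad lib), a high fat and sucrose diet with free access (HFS ad lib), or that diet within a limited daily window (HFS TRF, time-restricted feeding). The diets began at weaning, and the HFS TRF mice had free access to the diet before the window was imposed on them for the last weeks. On each regimen, mice were taken from the home cage (HC) at zt3 or zt15, counted in hours from lights on. Other mice were taken after 10 min of training in an object recognition memory task (ORM), either 1 h later (ORM+1 h, with HC zt3 as control) or 12 h later (ORM+12 h, with HC zt15 as control). Each of the 12 groups held 6 mice, except HFS TRF HC zt15 with 5, and each sample was 1 mouse. The HC zt3 and ORM+1 h mice formed a first experiment of 36 mice and the HC zt15 and ORM+12 h mice a second one of 35.

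Astrocytes take up glucose, hold most of the glycogen of the brain, and pass lactate and other substrates to neurons. They also make L-serine from a glycolytic intermediate, break down glycine, and carry part of the folate and sulfur amino acid metabolism of the tissue. Aldoc encodes the brain aldolase of glycolysis and Pygb the brain isoform of glycogen phosphorylase. Phgdh and Psat1 encode enzymes of serine synthesis, Gldc the decarboxylase of the glycine cleavage system, and Aldh1l1 the cytosolic formyltetrahydrofolate dehydrogenase, which is also a widely used astrocyte marker. Cbs encodes cystathionine beta-synthase, which joins serine to homocysteine. Acsbg1 encodes an acyl-CoA synthetase that activates fatty acids, Cyp2d22 a cytochrome P450, and Mt3 a brain metallothionein that binds zinc and copper. All are protein-coding genes, and counts cover their exons. In GRCm39 they lie with Aldoc at chr11:78213619-78218889 (plus strand), Pygb at chr2:150628628-150673685 (plus strand), Phgdh at chr3:98220484-98255047 (minus strand), Psat1 at chr19:15882039-15924701 (minus strand) and Gldc at chr19:30071975-30152871 (minus strand). The others are Aldh1l1 at chr6:90463409-90577185 (plus strand), Cbs at chr17:31827868-31856646 (minus strand), Acsbg1 at chr9:54510840-54569197 (minus strand), Cyp2d22 at chr15:82254727-82264597 (minus strand) and Mt3 at chr8:94879220-94881088 (plus strand).

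The promoters of these genes were read from RefSeq (GRCm38.p6), since most of the genes moved together in the comparisons below. Windows from 250 bases before to 50 bases after the transcription start were found for 9 of the 10 genes (11 windows), all but Cyp2d22. The motifs searched, on both strands, were the E-box CACGTG, the thyroid hormone receptor half-site AGGTCA, the core of the metal response element TGCNCNC, and TTGCNTCA, a composite site of ATF4 and C/EBP factors. An E-box was in 7.15% of the 32851 RefSeq windows of this length, a half-site in 16.3%, a metal response core in 51.0% and the composite site in 3.69%. Among the 10 genes, the E-box was matched in the window of Cbs, with its first base at -229 from the start, and the half-site in that of Aldh1l1, at -178 on the reverse strand. The metal response core was matched in the windows of 6 genes (Aldoc, Pygb, Psat1, Gldc, Aldh1l1 and Mt3) and the composite site in none of the 9 with a window, so none of the 4 motifs was shared by all of them. Matches of different motifs did not overlap. The 250 bases before the start of Cbs, Aldh1l1 and Mt3 are shown because they hold the matches named for zinc binding, folate and sulfur metabolism, written 5′ to 3′ on the strand of the gene, with every motif match in capitals (CACGTG is the E-box, TGACCT the reversed half-site, GGGAGCA a reversed match of the loose TGCNCNC pattern). The positions of these bases in GRCm38.p6 are chr17:31637206-31637455 (minus strand) for Cbs, chr6:90550543-90550792 (plus strand) for Aldh1l1 and chr8:94152357-94152606 (plus strand) for Mt3.
Cbs: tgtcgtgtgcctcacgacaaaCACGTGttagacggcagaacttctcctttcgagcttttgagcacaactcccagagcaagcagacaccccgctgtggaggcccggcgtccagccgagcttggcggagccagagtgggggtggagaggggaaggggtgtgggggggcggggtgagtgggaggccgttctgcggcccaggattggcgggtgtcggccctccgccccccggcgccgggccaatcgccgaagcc
Aldh1l1: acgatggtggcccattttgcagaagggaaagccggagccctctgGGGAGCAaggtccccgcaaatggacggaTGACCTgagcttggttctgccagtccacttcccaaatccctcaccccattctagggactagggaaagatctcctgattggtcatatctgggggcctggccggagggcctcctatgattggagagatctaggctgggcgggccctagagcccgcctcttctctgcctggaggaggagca
Mt3: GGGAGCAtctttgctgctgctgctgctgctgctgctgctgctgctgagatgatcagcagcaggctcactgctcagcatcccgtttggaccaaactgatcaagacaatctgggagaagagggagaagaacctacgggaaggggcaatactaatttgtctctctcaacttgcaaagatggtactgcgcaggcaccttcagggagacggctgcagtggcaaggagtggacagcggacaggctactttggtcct

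Total counts per mouse ran from 34698914 to 62758570, and the lowest count of any of the 10 genes in any mouse was 212 (Cyp2d22). Levels are normalised counts scaled to a common library size (CPM, TMM normalisation), and log2 changes and adjusted p-values were obtained with the quasi-likelihood test of edgeR, adjusted by the Benjamini-Hochberg method over all genes tested. All 12 astrocyte markers examined (Gfap, Aqp4, Slc1a2 and others) and all 6 markers of hippocampal neurons were detected in every mouse, whereas markers of endothelial cells were close to 0, with summed levels of 0.920 to 15.3 CPM. Choroid plexus markers, which include Ttr, summed to between 97.2 and 18695 CPM, and microglial markers to 472 CPM in HFS ad lib HC zt15 mouse 2 against at most 114 CPM in any other mouse. At HC zt3, the mice numbered 5 and 6 of both HFS groups stood apart in the genes studied here. The astrocyte markers summed to 1052 to 1284 CPM in HFS ad lib mice 1 to 4 and to 2954 and 2908 CPM in mice 5 and 6, and to 985 to 1355 CPM against 2065 and 1983 CPM in HFS TRF. In NC ad lib the sums of mice 5 and 6 were 1259 and 1539.5 CPM, the latter the highest of the group. Changes of the 10 genes against HC zt3 are therefore given with these mice and without mice 5 and 6 of all 3 regimens. This choice was made after the values were seen. Changes of the markers, of other genes of the same pathways and of the 10 genes relative to the markers are not given without these mice. Since these mice were picked for high values, leaving them out makes the later differences on HFS larger by construction.

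Per kilobase of exon, Mt3 had the highest mean level over the 71 mice (355 CPM per kb), followed by Aldoc (172), Pygb (23.4), Acsbg1 (19.7), Phgdh (14.3), Psat1 (13.3), Aldh1l1 (4.87), Gldc (3.42), Cyp2d22 (2.56) and Cbs (1.88). Between mice, the genes fell into 2 kinds. Pygb, Mt3 and Psat1 differed by 2.19-fold, 2.36-fold and 2.46-fold from the lowest to the highest mouse, and the other 7 genes by 5.00-fold (Gldc) to 7.59-fold (Acsbg1). Among the 12 groups, mean CPM was highest in NC ad lib ORM+1 h for 9 genes and in HFS TRF HC zt15 for Mt3. No pair of neighbouring groups in the order of means, 11 pairs per gene, differed by more than the SDs of the groups, so the order itself is a description. The spread within a group was widest at HC zt3 on HFS ad lib, with a median coefficient of variation over the 10 genes of 67.2%, against 49.2% on HFS TRF and 17.0% on NC ad lib. Acsbg1 overlaps the exons of Idh3a on the opposite strand over 1875 bases, and Aldh1l1 those of Gm45901 on its own strand over 105 bases. The library kit keeps strand, but the counting mode is not given in the sources used here, and if strand was not used, reads of Acsbg1 and Idh3a cannot be told apart.

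**Figure D1:**
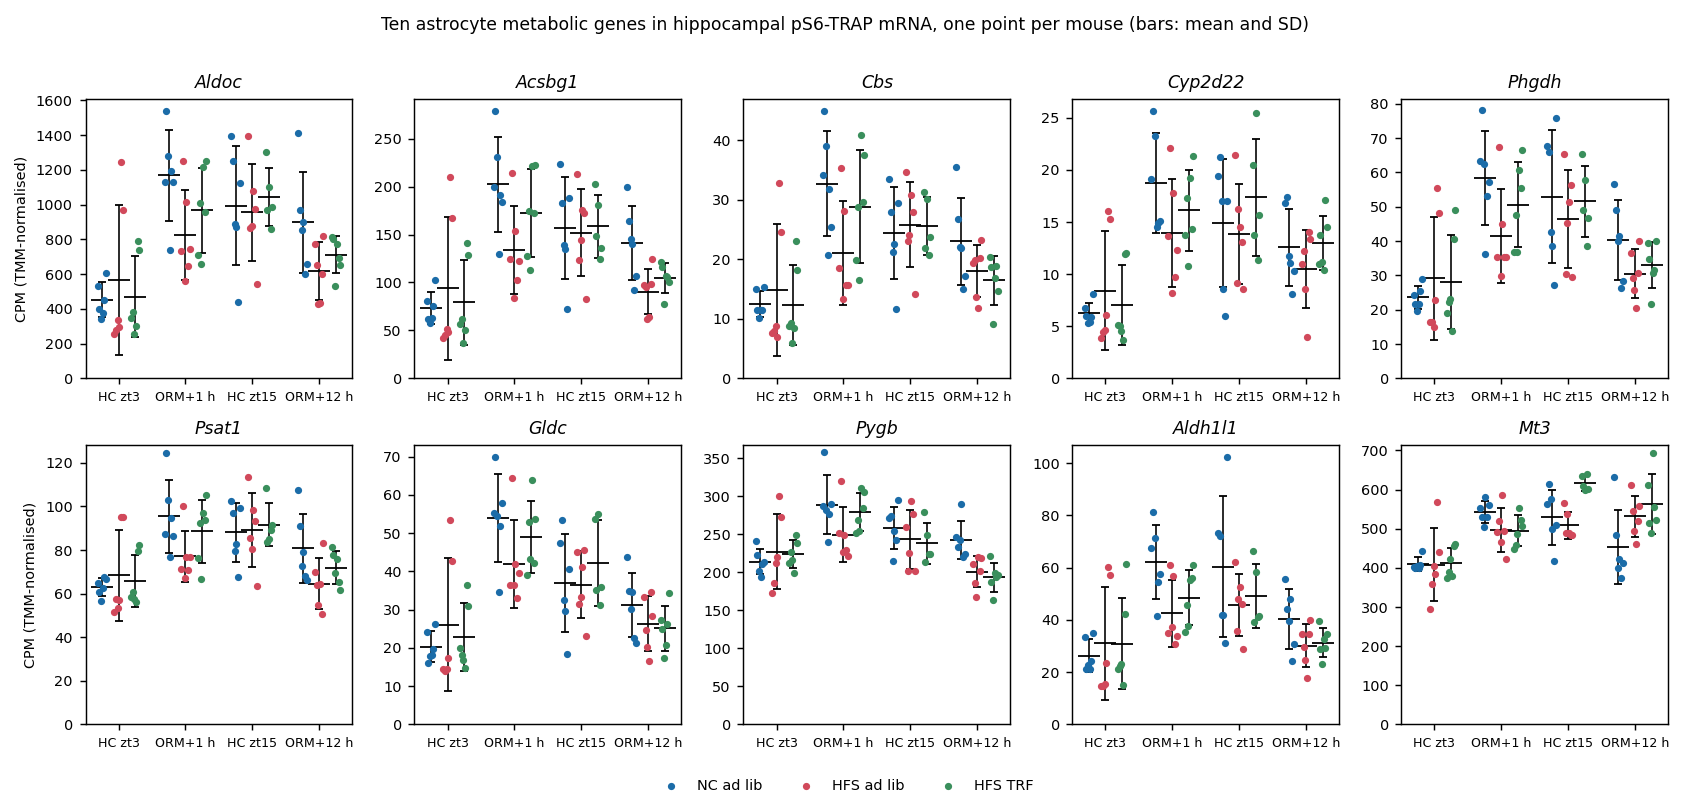
CPM of each of the 10 genes (1 panel per gene, linear axis) in each of the 71 mice, by group of regimen and condition, with a bar at the group mean. On HFS ad lib and HFS TRF, 2 of the 6 HC zt3 mice lie above the other 4 for most genes, for example Aldoc at 1246 and 971 CPM on HFS ad lib against 254 to 335 CPM in the others.

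At ORM+1 h on NC ad lib, all 10 genes were higher than at HC zt3, by a median of 1.34 on the log2 scale, whereas 5.73% of all genes tested changed in either direction and 4.03% were higher. Aldoc, the glycolytic aldolase, had 343, 426 and 607 CPM as the lowest, median and highest value at HC zt3 and 738, 1161 and 1539 CPM at ORM+1 h, with no overlap. It rose by 1.37 ± 0.28 (log2 ± SE, 2.59-fold, adjusted p = 0.000623). Pygb, the glycogen phosphorylase, went from 194, 212 and 241 to 239.8, 284 and 358 CPM, rose by 0.43 ± 0.10 (adjusted p = 0.00269), and was the one gene of the 10 whose groups overlapped. Groups that do not overlap in this direction were found for 9 of the 10 genes and for 3.19% of all genes. In bulk samples such as these, fewer cells of a type and less captured RNA per cell cannot be told apart.

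The genes of serine, glycine and folate metabolism all rose on NC ad lib, Psat1 by less than the others. Phgdh, which makes the first step of serine synthesis, had 19.7, 23.1 and 28.9 CPM at HC zt3 and 36.4, 59.8 and 78.1 CPM at ORM+1 h and rose by 1.30 ± 0.26 (adjusted p = 0.000476). Psat1, which makes the next step, went from 56.6, 63.7 and 67.6 to 76.8, 91.0 and 124 CPM and rose by 0.59 ± 0.14 (adjusted p = 0.00262). Every trained mouse was above every HC mouse for both genes, and the ranges of Psat1 were narrow. Gldc, the glycine decarboxylase, went from 16.1, 18.9 and 26.3 to 34.6, 54.9 and 70.1 CPM, a rise of 1.41 ± 0.25 (adjusted p = 8.76e-05). Aldh1l1, the folate enzyme, went from 21.2, 23.6 and 34.9 to 41.3, 62.7 and 81.3 CPM, a rise of 1.24 ± 0.29 (adjusted p = 0.00242).

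Among the remaining genes on NC ad lib, Cbs, of sulfur amino acid metabolism, had 10.2, 11.5 and 15.4 CPM at HC zt3 and 20.7, 33.1 and 45.0 CPM at ORM+1 h, a rise of 1.38 ± 0.30 (adjusted p = 0.000997). Acsbg1, the fatty acid activating enzyme, went from 58.2, 69.1 and 102 to 130.1, 195 and 279 CPM and rose by 1.46 ± 0.30 (adjusted p = 0.000460). The cytochrome P450 Cyp2d22 went from 5.29, 5.95 and 8.08 to 14.5, 17.1 and 25.7 CPM and rose by 1.59 ± 0.31 (adjusted p = 0.000253). All 3 had groups apart and changes of similar size to Aldoc. Mt3, the metallothionein, went from 399, 403 and 444 to 504, 542 and 581 CPM, the smallest rise of the 10 at 0.41 ± 0.098 (adjusted p = 0.00394), also without overlap.

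On HFS ad lib none of the 10 genes passed the test at ORM+1 h (adjusted p from 0.153 to 0.667), against 1.23% of all genes in either direction and 0.74% higher. At an unadjusted p under 0.05, 3 of the 10 genes were past the threshold, and with the DESeq2 Wald test 0 passed. All 10 log2 differences were positive, with a median of 0.51 and a range from 0.13 to 0.73. Aldoc had 254, 279.7, 335, 297, 1246 and 971 CPM in HC zt3 mice 1 to 6 and 561, 738 and 1250.1 CPM as the lowest, median and highest values at ORM+1 h (log2 difference 0.55 ± 0.28, adjusted p = 0.373). HC zt3 mouse 5 lay near the top of the trained range, and mouse 6 inside it, while mice 1 to 4 lay below it. The groups overlapped for all 10 genes, as for all but 0.819% of genes in this direction.

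The same holds for single genes of the other pathways on HFS ad lib. Phgdh ranged over 15.1 to 55.6 CPM at HC zt3 and 29.7 to 67.4 CPM at ORM+1 h (0.50 ± 0.26, adjusted p = 0.382), and Acsbg1 over 41.9 to 209.9 and 83.7 to 214 CPM (0.51 ± 0.29, adjusted p = 0.471). Without HC zt3 mice 5 and 6, 9 of the 10 genes passed, all but Pygb, with a median log2 change of 1.37 over the 10. Aldoc then had a change of 1.497 (adjusted p = 2.35e-05) and Acsbg1 one of 1.51 (adjusted p = 2.43e-05), and the remaining gene, Pygb, a difference of 0.33 (adjusted p = 0.0657). Without mouse 5 alone, 3 of the 10 genes passed, and without any other single mouse none. The labels give no ground to leave these mice out.

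On HFS TRF, 5 of the 10 genes rose at ORM+1 h, Aldoc, Gldc, Cbs, Acsbg1 and Cyp2d22, where 2.87% of all genes changed and 2.24% were higher. Aldoc had 256, 366 and 790.0 CPM as the lowest, median and highest value at HC zt3 and 659, 982 and 1251 CPM at ORM+1 h (a rise of 1.04 ± 0.28, adjusted p = 0.0234). Gldc went from 14.7, 19.1 and 36.6 to 39.0, 48.0 and 64.0 CPM (1.10 ± 0.25, adjusted p = 0.00488). Its groups did not overlap, and the same held for Pygb, 2 of the 10 genes against 2.14% of all genes. Acsbg1 rose by 1.12 ± 0.29 (adjusted p = 0.0181), Cbs by 1.23 ± 0.30 (adjusted p = 0.00818) and Cyp2d22 by 1.19 ± 0.31 (adjusted p = 0.0148). The 5 genes that missed the threshold had log2 differences of 0.86 ± 0.26 (Phgdh, adjusted p = 0.0566), 0.43 ± 0.14 (Psat1, 0.0724), 0.32 ± 0.10 (Pygb, 0.0642), 0.65 ± 0.28 (Aldh1l1, 0.265) and 0.26 ± 0.098 (Mt3, 0.161). Without HC zt3 mice 5 and 6, all 10 passed, with a median log2 change of 1.43, and on NC ad lib all 10 passed as well (median 1.38). The count of 5 on HFS TRF became 8 with the DESeq2 Wald test or in a model of the compared groups alone, 8 without HC zt3 mouse 5 or mouse 6, 2 without any one of HC zt3 mice 1 to 4, and 3 without ORM+1 h mouse 4 or mouse 6.

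**Figure D2:**
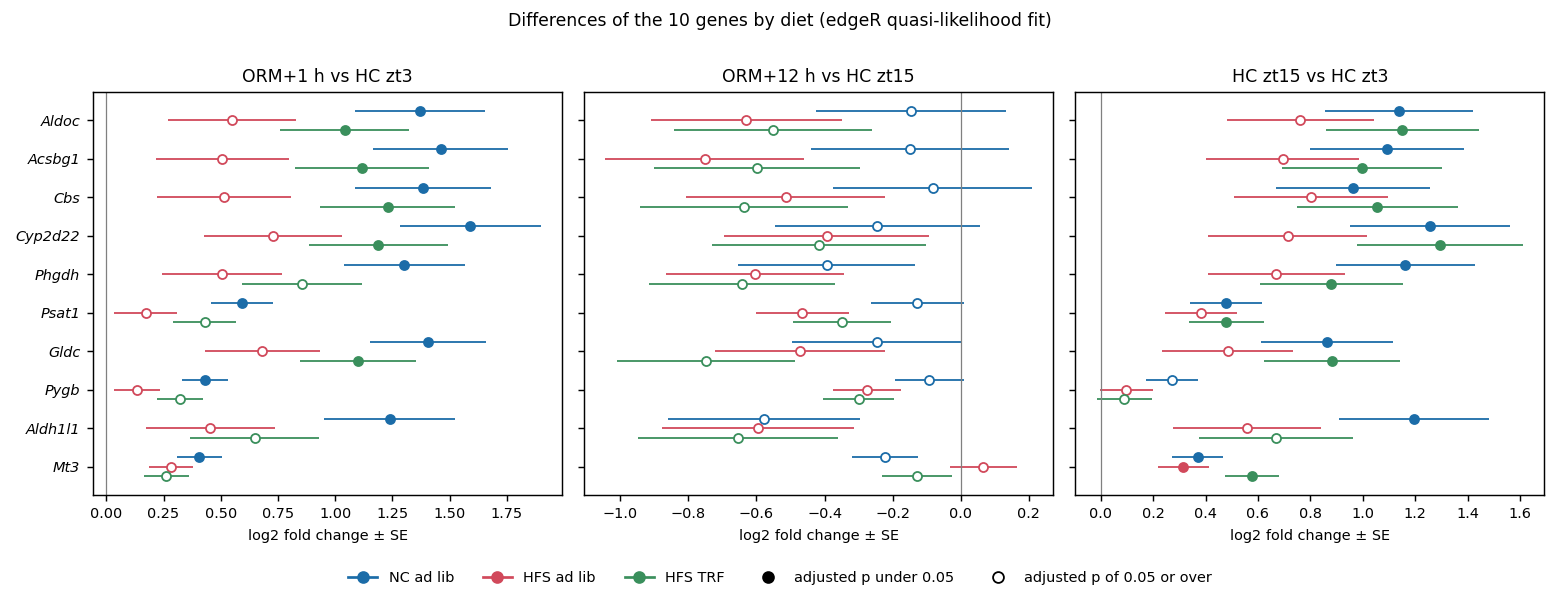
Log2 change ± SE of each of the 10 genes at ORM+1 h against HC zt3, at ORM+12 h against HC zt15 and at HC zt15 against HC zt3, on the 3 regimens. The changes lie above 0 for all 10 genes at ORM+1 h and at HC zt15, with medians of 1.34 and 1.03 on NC ad lib, and mostly below 0 at ORM+12 h.

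The 12 astrocyte markers moved with the 10 genes. At ORM+1 h, 12 of 12 markers rose on NC ad lib (median log2 1.27), 1 on HFS ad lib (0.56) and 11 on HFS TRF (1.00). Their summed level per mouse ranged over 1229.6 to 1539.5 CPM at HC zt3 and 2536 to 4157 CPM at ORM+1 h on NC ad lib, over 1052 to 2954 and 1731 to 3828 CPM on HFS ad lib, and over 985 to 2065 and 2031 to 3518 CPM on HFS TRF. With the mean log2 level of the markers as a covariate, none of the 10 genes passed in any regimen, and their median log2 differences were -0.12, -0.076 and -0.10 in the order NC ad lib, HFS ad lib, HFS TRF. Since the markers themselves moved with training, this fit takes out any change shared with them and cannot tell whether the genes changed. Of the neuronal markers (10 genes), 2 fell on NC ad lib and none passed otherwise, and none passed of the oligodendrocyte (7), oligodendrocyte precursor (4), microglial (7), endothelial (6), choroid plexus (7) and hippocampal (6) markers or of 6 markers of other brain regions. Neuronal markers had medians of -0.14, -0.030 and -0.065, and oligodendrocyte markers of 0.068, -0.093 and 0.029. Choroid plexus markers had medians of 1.58, 0.49 and -0.70, with sums over 97.2 to 12217 CPM among trained NC ad lib mice. With choroid plexus markers as a covariate, 10, 0 and 6 of the 10 genes passed.

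**Figure D3:**
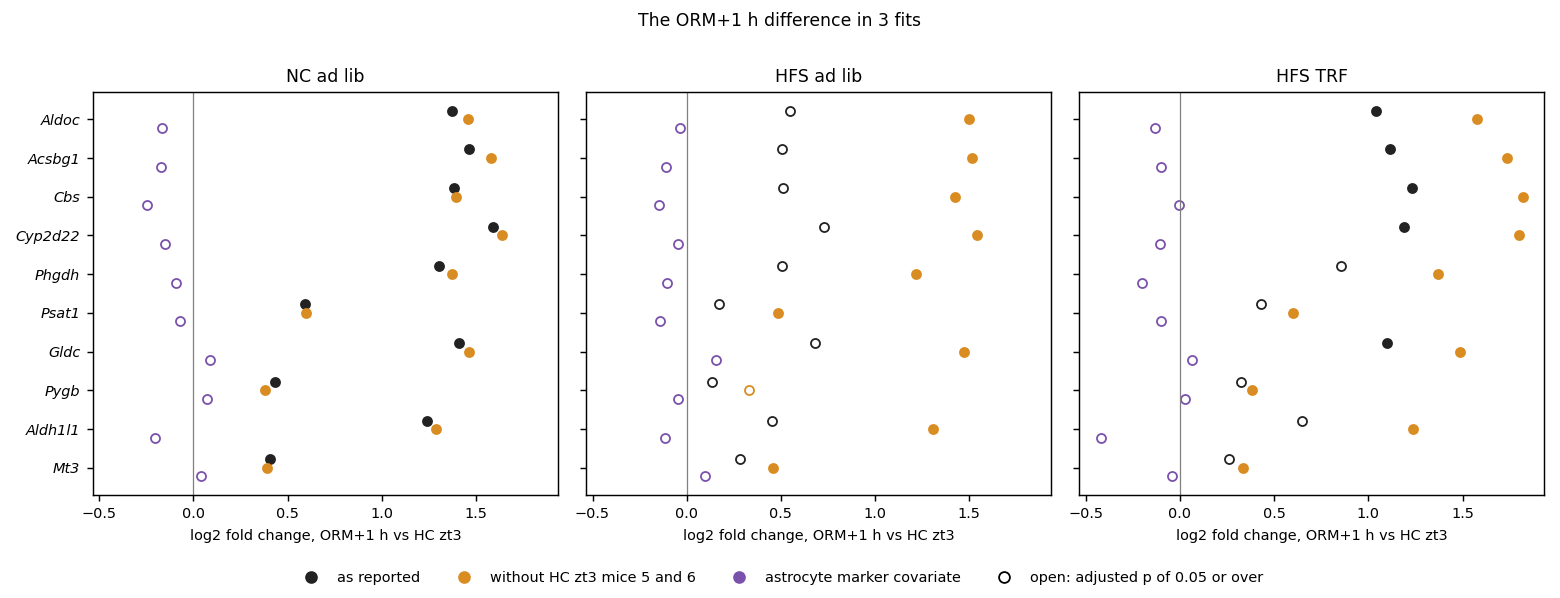
Log2 change of each of the 10 genes at ORM+1 h against HC zt3, on the 3 regimens, in the model as reported, without HC zt3 mice 5 and 6, and with the astrocyte markers as a covariate. For Aldoc at ORM+1 h on HFS ad lib the 3 values are 0.55, 1.497 and -0.037.

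Within this joint rise, Psat1, Pygb and Mt3 moved less than the markers. The log2 CPM of each gene minus the mean log2 CPM of the 12 markers was compared in each mouse by a 2-sided exact permutation test, in 90 tests of 10 genes and 9 comparisons that were adjusted together. At ORM+1 h on NC ad lib, this difference was lower than at HC zt3 for Psat1, Pygb and Mt3 (log2 differences -0.82, -0.98 and -0.996, adjusted exact p = 0.0390 each). On HFS TRF the values were -0.72, -0.84 and -0.89 (adjusted exact p = 0.0390, 0.0390 and 0.0487). With 6 mice against 6 the smallest p of this test is 0.00216, and the other 7 genes at ORM+1 h did not pass on these regimens. On HFS ad lib no gene passed (smallest adjusted exact p = 0.123). At HC zt15 on HFS TRF, Psat1 (-0.74) and Gldc (-0.31) passed (adjusted exact p = 0.0487 and 0.0487). In all, 8 of the 90 tests passed, 0 when any one of the HFS TRF ORM+1 h mice was left out and 5 or 6 when a mouse of HFS TRF HC zt3 or HC zt15 was, while 13 passed without NC ad lib HC zt15 mouse 5. In the comparisons with HFS TRF HC zt15, 5 mice against 6, the smallest p this test gave with no mouse left out was 0.00433.

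Most of the 10 genes were also higher at HC zt15 than at HC zt3, a comparison in which the hour of sampling and the experiment cannot be told apart. On HFS TRF, zt15 lay inside the feeding window and zt3 outside it, so access to food differed as well and cannot be told apart either. On NC ad lib, 9 genes passed, all but Pygb, all of them higher, with a median of 1.03 over the 10, where 11.7% of all genes changed and 5.18% were higher. Aldoc went from 343, 426 and 607 CPM at HC zt3 to 437, 1008 and 1396 CPM at HC zt15 (1.14 ± 0.28, adjusted p = 0.00282). Acsbg1 went from 58.2, 69.1 and 102 to 71.9, 161 and 223 CPM (1.09 ± 0.29, adjusted p = 0.00675) and Mt3 from 399, 403 and 444 to 417, 536 and 614 CPM (0.37 ± 0.098, adjusted p = 0.00553). The groups of Psat1 did not overlap (56.6 to 67.6 against 67.7 to 103 CPM), 1 gene of 10 against 1.54% of all genes, and those of the other 9 did. Pygb had 194, 212 and 241 and 215, 262 and 294 CPM (0.27 ± 0.10, adjusted p = 0.0645).

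On HFS ad lib, Mt3 alone passed (294, 395 and 569 CPM at HC zt3, 483, 489 and 567 CPM at HC zt15, 0.32 ± 0.098, adjusted p = 0.0249), where 10.4% of all genes changed and 3.88% were higher. All 10 differences were positive, and all 10 pairs of groups overlapped (1.24% of all genes did not, in this direction), with a median of 0.61. On HFS TRF, 8 genes passed, all but Pygb and Aldh1l1 and all higher, with a median of 0.88 over the 10 genes and 14.2% of all genes changed, 5.95% higher. There, Aldoc went from 256, 366 and 790.0 to 861, 987 and 1306 CPM (1.15 ± 0.29, adjusted p = 0.00321) and Phgdh from 13.8, 22.6 and 49.1 to 38.5, 49.1 and 65.5 CPM (0.88 ± 0.27, adjusted p = 0.0189). Aldoc, Psat1 and Mt3 had groups apart, 3 of 10 genes against 3.1% of all genes. Aldh1l1 had a log2 difference of 0.67 ± 0.29 (adjusted p = 0.119).

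Single mice moved the count on HFS ad lib, which was 9 without HC zt3 mouse 5, 7 without mouse 6, 4 without HC zt15 mouse 6, and 0 without HC zt3 mouse 1, 2 or 4 or HC zt15 mouse 1 or 3. It was 2 with the DESeq2 Wald test or with filterByExpr and 0 in a model of the compared groups alone. On HFS TRF it was 5 without HC zt15 mouse 1. Without HC zt3 mice 5 and 6, 9 genes passed on each of the 3 regimens, with medians of 1.10, 1.40 and 1.31. Of the 12 astrocyte markers, 12, 5 and 12 rose on the 3 regimens (medians 1.10, 0.62 and 1.11). With them as a covariate none of the 10 genes passed, in a fit that takes out any change shared with these markers. Markers of other cells moved as well. Of the 6 hippocampal markers 2, 1 and 0 rose and 3, 1 and 1 fell, and of the 10 neuronal markers 1, 2 and 0 rose (medians -0.078, 0.11 and -0.070). Of the 7 microglial markers 0, 3 and 0 rose (medians -0.22, 0.71 and -0.17). The HFS ad lib values include HC zt15 mouse 2, whose microglial markers stood above those of all other mice, and are not given without it. Of the 4 oligodendrocyte precursor markers 1, 1 and 1 rose, of the 7 oligodendrocyte markers 0, 0 and 1 and of the 6 endothelial markers 0, 1 and 1. No choroid plexus marker passed, with medians of 1.89, -0.30 and 0.84. Their part in the differences of the 10 genes was not tested, apart from the choroid plexus markers, with which as a covariate 9, 1 and 8 of the 10 genes passed. Since ORM+1 h and HC zt15 were both compared with the HC zt3 mice, the changes in these comparisons share their control values.

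At ORM+12 h, none of the 10 genes passed on any regimen, and most values were lower than at HC zt15. Of all genes, 0.209% changed on NC ad lib, 0.179% on HFS ad lib and 2.46% on HFS TRF, and 0.0664%, 0.109% and 0.889% were lower. The median log2 difference of the 10 genes was -0.19, -0.49 and -0.57, with 10, 9 and 10 of 10 below 0 and smallest adjusted p-values of 0.245, 0.119 and 0.0929. At an unadjusted p under 0.05 the counts were 2, 6 and 6, and DESeq2 called 0, 0 and 1 of the 10. On HFS TRF, Aldoc had 861, 987 and 1306 CPM at HC zt15 (5 mice) and 533, 734 and 814 CPM at ORM+12 h (-0.55 ± 0.29, adjusted p = 0.261). Acsbg1 had 124, 148 and 203 and 77.8, 106 and 121 CPM (-0.60 ± 0.30, adjusted p = 0.238). The trained mice lay below all HC mice for Aldoc, Acsbg1, Cbs and Psat1 on HFS TRF, 4 genes of 10 against 0.756% of all genes, and for no gene of the 10 on NC ad lib or HFS ad lib (against 0.182% and 0.133% of all genes). With only the HC zt15 and ORM+12 h mice of that regimen in the model, 6 of the 10 genes passed, all lower, and on HFS ad lib 1 gene passed without HC zt15 mouse 6.

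The astrocyte markers had medians of -0.15, -0.30 and -0.31 in the same comparisons, and 0 of 12 passed on each regimen. Choroid plexus markers had medians of -2.99, 1.69 and -1.66, none past the threshold. On HFS ad lib 1 neuronal marker fell, and on HFS TRF 1 neuronal, 1 oligodendrocyte and 1 hippocampal marker rose. The 3 regimens are given side by side for Psat1, whose differences were -0.13 ± 0.14 on NC ad lib, -0.46 ± 0.14 on HFS ad lib and -0.35 ± 0.14 on HFS TRF (adjusted p = 0.707, 0.119 and 0.147), and for Mt3, with -0.22 ± 0.098, 0.066 ± 0.098 and -0.13 ± 0.10 (adjusted p = 0.245, 0.811 and 0.491).

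Between regimens, within the same condition, few differences passed the test. In 11 of the 12 comparisons of 2 regimens none of the 10 passed, and in 8 of these no gene of all those tested passed either, so the background there is 0%. The other 3 had backgrounds of 0.063% (HFS ad lib against NC ad lib at HC zt15), 2.27% (the same regimens at ORM+12 h) and 0.00664% (HFS TRF against HFS ad lib at ORM+12 h). The exception was HFS TRF against NC ad lib at ORM+12 h, where 2 of the 10 genes passed and 8.78% of all genes changed. Pygb had 219.7, 237 and 289.6 CPM on NC ad lib and 163, 195 and 221 CPM on HFS TRF, overlapping ranges with means of 242 ± 25.2 and 193 ± 18.8 CPM (SD, n = 6 each), and was changed by -0.33 ± 0.10 on the log2 scale (adjusted p = 0.0274). Mt3 had 375, 417 and 632 and 488, 538 and 695 CPM, means of 454 ± 94.6 and 564 ± 76.6 CPM, and was higher on HFS TRF by 0.31 ± 0.098 (adjusted p = 0.0309). In this comparison 4 of the 7 oligodendrocyte markers were also higher on HFS TRF (median log2 0.36), 2 of the 10 neuronal markers were lower (median -0.15) and 1 of the 6 hippocampal markers was higher (median -0.050). None of the 12 astrocyte or 7 choroid plexus markers passed (medians -0.10 and 1.16). The part of these moves in the values of Pygb and Mt3 was not tested. With the astrocyte markers as a covariate, 4 of the 10 genes passed here and 2 for HFS ad lib against NC ad lib at ORM+12 h, and in a model of the compared groups alone 1 passed here. The count of 2 became 0 without NC ad lib ORM+12 h mouse 4 and 1 without mouse 3, 5 or 6 of that group or mouse 1, 3 or 4 of HFS TRF ORM+12 h, and for HFS ad lib against NC ad lib 1 gene passed without NC ad lib ORM+12 h mouse 1. Whether the changes with training or time of day differed between regimens was tested as interaction terms, and none of the 10 genes passed in any of the 6, where 0% of all genes did except 0.106% for the change at ORM+12 h on HFS ad lib against NC ad lib.

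For the change at ORM+1 h on HFS ad lib against that on NC ad lib, the interaction was negative for all 10 genes, with a median of -0.79 and a range from -0.96 to -0.12, and 8 of 10 had an unadjusted p under 0.05. The smallest adjusted p of the 10 was 0.722, and of all 30141 genes 0 passed and 1884 had an unadjusted p under 0.05. The 95% interval for Aldoc ran from -1.60 to -0.050. The smaller log2 differences on HFS ad lib were therefore not shown to differ from those on NC ad lib. Without HC zt3 mice 5 and 6 the median interaction was -0.021, with 5 of the 10 genes above 0, a value that follows in part from the choice of high control mice and is given as a description.

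Across mice the 10 genes varied together with each other and with the astrocyte markers. Over the 45 pairs of genes the correlation of log2 CPM across the 71 mice ranged from 0.28 to 0.99, with a median of 0.89, and after the group means had been taken away from 0.45 to 0.99, with a median of 0.87. The deviations from the group means were then related to those of the mean log2 level of the 12 markers, in 20 tests of 10 genes by 2 coefficients with 100000 permutations each. Pearson's r ran from 0.61 for Pygb to 0.94 for Cyp2d22 and Spearman's rho from 0.60 for Mt3 to 0.93 for Cyp2d22. The permutation p was 1e-05, the smallest these permutations can give, in 19 of the tests and 2e-05 for rho of Mt3 (adjusted 1.05e-05 and 2e-05). The 10 genes were picked as astrocyte-enriched, so a relation with these markers follows in part from that choice. Without the 2 mice farthest from the median of the markers, r ran from 0.56 for Mt3 to 0.93 for Cyp2d22. The slope on the markers over all mice was between 0.91 and 1.17 for 7 genes, that is, close to a change of equal size, and 0.43 for Psat1, 0.30 for Mt3 and 0.23 for Pygb. Correlations with sequencing depth within groups lay between -0.015 and 0.12, those with the neuronal markers between -0.52 (Mt3) and -0.15 (Pygb), negative for all 10 genes, and those with choroid plexus markers between -0.24 and 0.19. Of 12918 protein-coding genes with a mean of at least 1 CPM, those whose log2 CPM was most like the mean z score of the 10 genes over the 71 mice were Glul (r = 0.981), Ndrg2 (0.967) and Asrgl1 (0.963), and for deviations from the group means Glul (0.976), Ndrg2 (0.971) and Gstm1 (0.963). Glul encodes glutamine synthetase.

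The other genes of the same pathways moved less evenly at ORM+1 h. Counts are given in the same order of regimens, chow first and HFS TRF last, and are to be read against the 4.03%, 0.74% and 2.24% of all genes that were higher and the 1.7%, 0.491% and 0.624% that were lower. HC zt3 mice 5 and 6 were included in all counts of these lists. No gene of these lists fell, apart from 1 noted for sulfur amino acids. Of 21 other genes of glycolysis and lactate transport, 2, 1 and 2 rose (median log2 differences -0.093, -0.10 and -0.071). The lactate transporter Slc16a1 was among them on each regimen (0.58 ± 0.11, 0.62 ± 0.11 and 0.75 ± 0.11, adjusted p = 0.000204, 0.000298 and 3.84e-06), and the glucose transporter Slc2a1 on NC ad lib (0.73 ± 0.18, adjusted p = 0.00526). Of 13 other glycogen genes, 6, 0 and 4 rose (medians 0.47, 0.13 and 0.23), led by Ppp1r3c, a subunit that targets protein phosphatase 1 to glycogen (1.75 ± 0.26 on NC ad lib, adjusted p = 2.53e-06, and 1.33 ± 0.26 on HFS TRF, adjusted p = 0.000510).

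Of 18 other genes of serine, glycine and folate metabolism, 3, 0 and 2 rose (medians 0.070, -0.021 and 0.053). Psph, the last enzyme of serine synthesis, rose by 0.59 ± 0.099 on NC ad lib (adjusted p = 2.58e-05) and 0.41 ± 0.099 on HFS TRF (adjusted p = 0.00900), and Amt, a partner of Gldc in glycine cleavage, by 0.87 ± 0.20 on NC ad lib (adjusted p = 0.00195). Of 18 genes of sulfur amino acids and glutathione, 3, 0 and 1 rose and 0, 1 and 0 fell (medians 0.16, -0.042 and -0.011). The cystine transporter Slc7a11 rose by 1.60 ± 0.26 (adjusted p = 1.80e-05), and Cth, which acts on the product of Cbs, by 1.21 ± 0.27 (adjusted p = 0.00205), both on NC ad lib. These steps lie beside those of Phgdh, Gldc and Cbs.

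Of 20 other genes of fatty acid activation and oxidation, 10, 0 and 1 rose (medians 0.55, 0.16 and 0.099), among them the acetyl-CoA synthetase Acss1 (1.22 ± 0.19 on NC ad lib, adjusted p = 1.04e-05). Of 10 genes of metallothioneins and zinc handling, 5, 0 and 3 rose and 0, 0 and 0 fell (medians 0.17, 0.12 and 0.18), with Mt1 at 1.15 ± 0.21 (adjusted p = 9.21e-05) and Mt2 at 1.34 ± 0.26 (adjusted p = 0.000202) on NC ad lib. Both changes were larger than that of Mt3 in the same comparison. Of 10 tested cytochrome P450 genes, out of 14 listed, 4, 1 and 3 rose (medians 0.78, 0.56 and 0.75), and Cyp51, which acts in cholesterol synthesis, passed on each regimen (0.82 ± 0.10, 0.59 ± 0.10 and 0.62 ± 0.10, adjusted p = 2.97e-08, 0.000136 and 3.09e-05). The median log2 difference of all genes tested was 0 on NC ad lib.

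Of the genes of glycolysis and lactate transport, 2, 1 and 2 rose at HC zt15 and 3, 1 and 7 fell. Of the genes of glycogen, 4, 0 and 3 rose at HC zt15 and 0, 0 and 0 fell. Of the genes of serine, glycine and folate, 2, 0 and 2 rose at HC zt15 and 0, 0 and 0 fell, in the same order of regimens. Of all genes, 5.18%, 3.88% and 5.95% were higher and 6.54%, 6.54% and 8.26% lower. For the other lists the numbers that rose at HC zt15 were 2, 0 and 2 (sulfur amino acids and glutathione), 7, 1 and 4 (fatty acids), 4, 2 and 3 (metallothioneins and zinc), 4, 0 and 2 (cytochrome P450), and those that fell were 2, 2 and 2 (sulfur amino acids and glutathione), 0, 0 and 1 (fatty acids), 0, 0 and 1 (metallothioneins and zinc), 0, 0 and 0 (cytochrome P450). Mat2a, which makes S-adenosylmethionine, fell on all 3 regimens (-0.32 ± 0.093, -0.36 ± 0.093 and -0.41 ± 0.098, adjusted p = 0.0121, 0.00516 and 0.00170), and its regulatory subunit Mat2b on NC ad lib and HFS ad lib (-0.17 ± 0.055 and -0.20 ± 0.055, adjusted p = 0.0341 and 0.0109). The acyl-CoA synthetase Acsl4 fell on HFS TRF (-0.29 ± 0.088, adjusted p = 0.0178). The glucose transporter Slc2a1 rose at HC zt15 on NC ad lib (0.73 ± 0.18, adjusted p = 0.00278) and HFS TRF (0.67 ± 0.19, adjusted p = 0.00764), while Pfkl, a phosphofructokinase, fell on all 3 regimens (-0.29 ± 0.069, -0.26 ± 0.069 and -0.40 ± 0.073, adjusted p = 0.00189, 0.00661 and 3.82e-05). At ORM+12 h none of the genes of these 7 lists passed on NC ad lib or HFS ad lib. On HFS TRF, where 1.57% of all genes were higher and 0.889% lower (0.143% and 0.0697% were higher on NC ad lib and HFS ad lib), 3 glycogen genes fell, among them Pygm, the muscle isoform of glycogen phosphorylase (-0.83 ± 0.21, adjusted p = 0.0243), 4 fatty acid genes fell and 1 rose, 2 glycolysis genes fell, and 1 zinc gene rose, the vesicular zinc transporter Slc30a3 (0.57 ± 0.14, adjusted p = 0.0211). Between HFS TRF and NC ad lib at ORM+12 h, 8 of the 21 glycolysis genes were lower on HFS TRF and none higher, where 5.31% of all genes were lower, for example Pfkl (-0.34 ± 0.069, adjusted p = 0.000932) and the lactate dehydrogenase Ldha (-0.29 ± 0.073, adjusted p = 0.00571), and 3 of the 18 sulfur and glutathione genes were lower, as was 1 gene each of the glycogen, serine, fatty acid and zinc lists and none of the cytochrome P450 list. All these lists were chosen with earlier results known and no list was tested as a whole.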

How the data were processed

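Hippocampal pS6-TRAP mRNA of 71 mice was sequenced from stranded libraries. Per the submitters' processing notes and the methods, the authors trimmed reads with Trim Galore 0.6.7 (cutadapt 3.4), aligned them to GRCm39 with HISAT2 2.2.0 and took unique alignments into gene counts by featureCounts (Subread 2.0.3), the notes also naming mm9. The deposited values are raw counts per gene and mouse. Here, genes with at least 10 counts in total were tested with edgeR 4.0.16 (TMM, quasi-likelihood test, 1 model of 12 groups, Benjamini-Hochberg adjustment, threshold 0.05) in R 4.3.3. The authors' package, DESeq2 (1.42.0), was an alternative. Others were its size factors, at least 1 count (35816 genes), filterByExpr (21512 genes), the replicate number as a block, a model of the compared groups alone, marker covariates, and leaving out each mouse. Log2 CPM has a prior count of 2 (alternative 0.5). Named are the 10 genes, up to 3 called genes per pathway list with the smallest adjusted p, and the 3 genes most like the 10. Genes, marker lists, pathway lists and tests were chosen with earlier results of these data known, and the omission of HC zt3 mice 5 and 6 after the values were seen. The model was also run on counts simulated from its own fit, with the same spread per gene in all groups. The groups differed in spread here, so this run does not show how the test behaves on these data. No duplicated library was found.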

Additional observations from a re-analysis of the deposited data

Results flagged for a closer look

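In each of the 10 genes and 12 groups, 120 sets of mice in all, the highest and lowest mouse were compared with the others by Dixon's test. A mouse far from the rest was found in 4 sets. Chance gives about 1 in 20 for separate sets. The 10 genes vary together across mice, so these sets are not separate and the share cannot be set against that rate. HFS ad lib ORM+1 h mouse 2 was above the other 5 mice of its group in Psat1 (99.99 CPM), Gldc (64.3 CPM) and Pygb (319 CPM). NC ad lib HC zt3 mouse 6 was above the others in Mt3 (444 CPM). The HC zt3 mice 5 and 6 of the HFS groups, which stand apart as a pair, are not found by this test, since each is near the other.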

How the results depend on the processing

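The 27 counts of genes called over the 10 genes were within 1.5 times the reported count with DESeq2 size factors, with every gene of 1 count or more tested, and with choroid plexus markers as a covariate. With the DESeq2 Wald test the count moved to 8 of the 10 genes at ORM+1 h on HFS TRF, 1 at ORM+12 h on HFS TRF and 2 at HC zt15 on HFS ad lib. With filterByExpr it moved to 2 at HC zt15 on HFS ad lib. In a model of no more than the groups being compared it moved to 8 at ORM+1 h and 6 at ORM+12 h on HFS TRF, 0 at HC zt15 on HFS ad lib and 1 between HFS TRF and NC ad lib at ORM+12 h, and the cause was not tested. Without HC zt3 mice 5 and 6 it was 9 and 10 at ORM+1 h on HFS ad lib and HFS TRF and 9 at HC zt15 on HFS ad lib. The 90 tests relative to the markers gave 8 passes with a prior count of 0.5 as well.

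Leaving out each mouse in turn gave 10 to 10 genes at ORM+1 h on NC ad lib, 0 to 3 on HFS ad lib and 2 to 8 on HFS TRF, and 0 to 1 at ORM+12 h on HFS ad lib. At HC zt15 it gave 8 to 10 on NC ad lib, 0 to 9 on HFS ad lib and 5 to 9 on HFS TRF. At ORM+12 h it gave 0 to 1 for HFS ad lib against NC ad lib and 0 to 2 for HFS TRF against NC ad lib, and of the 90 relative tests 0 to 13 passed. Cbs at ORM+12 h on NC ad lib turned to 0.029 without HC zt15 mouse 1 and 0.014 without ORM+12 h mouse 5.

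A fit with the astrocyte markers as a covariate takes out any change that the genes share with them. With this covariate the count became 0 at ORM+1 h on NC ad lib and HFS TRF, 0 at HC zt15 on all 3 regimens, 2 for HFS ad lib against NC ad lib at ORM+12 h and 4 between HFS TRF and NC ad lib at ORM+12 h. The log2 values that changed sign became, at ORM+1 h on NC ad lib, Aldoc -0.17, Acsbg1 -0.17, Cbs -0.25, Cyp2d22 -0.15, Phgdh -0.090, Psat1 -0.069 and Aldh1l1 -0.21. On HFS ad lib they were Aldoc -0.037, Acsbg1 -0.11, Cbs -0.15, Cyp2d22 -0.045, Phgdh -0.11, Psat1 -0.14, Pygb -0.044 and Aldh1l1 -0.12. On HFS TRF they were Aldoc -0.13, Acsbg1 -0.10, Cbs -0.0033, Cyp2d22 -0.10, Phgdh -0.20, Psat1 -0.10, Aldh1l1 -0.42 and Mt3 -0.041. At ORM+12 h they were Aldoc 0.039, Acsbg1 0.042 and Cbs 0.079 on NC ad lib, Cyp2d22 0.015 on HFS ad lib and Cyp2d22 0.078 on HFS TRF. At HC zt15 they were Aldoc -0.11, Acsbg1 -0.22, Cbs -0.33, Cyp2d22 -0.18, Psat1 -0.032 and Gldc -0.22 on NC ad lib, Cyp2d22 -0.099, Gldc -0.062, Pygb -0.088 and Aldh1l1 -0.051 on HFS ad lib and Aldoc -0.079, Acsbg1 -0.29, Cbs -0.22, Cyp2d22 -0.11, Phgdh -0.25, Psat1 -0.076, Gldc -0.24, Pygb -0.22 and Aldh1l1 -0.49 on HFS TRF.

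Mice of different groups share replicate numbers. In 0 of 21 comparisons did every pair of same-numbered mice have deviations correlated above 0.1. A partial pairing could also miss this bar, so whether the numbers pair some of the mice was not settled. The median correlation of same-numbered mice ran from -0.30 (HFS TRF against NC ad lib, HC zt15) to 0.42 (HFS TRF against HFS ad lib, ORM+1 h). Mice of other numbers had medians of 0.039 and -0.23 in these 2 comparisons. With the replicate number as a block, the count became 5 at HC zt15 on HFS ad lib and moved by less than 1.5 times elsewhere, as it did with the number within each condition for the regimens.

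At 34698914 counts or more per mouse and at least 212 counts per gene, the spread between mice, not counting error, sets the precision of these values.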
